A study of Mus musculus with 4 samples.

Results

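The genes of the App family and of amyloid processing were followed across postnatal development and across cell classes of the mouse prefrontal cortex (PFC). The set holds 9 genes given by name: the precursor App and its relatives Aplp1 and Aplp2, the proteases Adam10, Bace1 and Psen2, the BRI family members Itm2b and Itm2c, and the sorting receptor Sorl1. All 9 were present in each of the 4 libraries, out of 29281 genes listed in any of them. The libraries came from C57BL/6 mice (C57BL/6J in the study) at P1, P4, P10 and adult (P84), and the methods state 2 mice at each age, all female. The cells of an age form 1 library and were not assigned to mice here, so each age is 1 sample, and without replicates the ages are compared by their values alone. PFC slices were held in a medium with actinomycin D, which blocks transcription, and the tissue was then digested with protease and papain. Single cells were captured in microwells for 3′ whole transcriptome sequencing.

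App is a single-pass membrane protein, abundant in neurons, that is cut by secretases. The alpha-secretase Adam10 cuts within the amyloid-beta stretch, which prevents its release, whereas cuts by the beta-secretase Bace1 and then by gamma-secretase, of which Psen2 is a catalytic subunit, set amyloid-beta free. Itm2b and Itm2c (BRI2 and BRI3) bind App and hinder its cleavage. Sorl1 returns App from endosomes to the Golgi with the retromer complex. Mutations of APP and PSEN2 can cause inherited Alzheimer's disease in humans, and ITM2B mutations cause familial British and Danish dementia.

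The sequences below show what distinguishes App from its relatives and where the BRI proteins are cut. They were read from the GENCODE M21 transcripts of build GRCm38. The first stretch lies on the minus strand of chr16:84962776-84965738 in coding exons 14 and 15 of App, and its 126 capital bases encode mouse amyloid-beta, codons 597 to 638.
App, amyloid-beta: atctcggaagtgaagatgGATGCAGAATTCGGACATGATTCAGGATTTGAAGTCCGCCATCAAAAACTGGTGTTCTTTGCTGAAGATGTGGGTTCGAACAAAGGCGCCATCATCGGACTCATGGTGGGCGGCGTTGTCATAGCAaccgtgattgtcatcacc
The 4 residues that open this stretch (Asp-Ala-Glu-Phe) were not found in the products of Aplp1 or Aplp2. The cytoplasmic end is shared, and the next 3 sequences give the last codons of App (minus strand of chr16:84955334-84955378), Aplp1 (minus strand of chr7:30435296-30435337) and Aplp2 (minus strand of chr9:31150874-31150918), with the codons of the Asn-Pro-Thr-Tyr motif, which binds endocytic and signalling adaptors, in capitals.
App, tail: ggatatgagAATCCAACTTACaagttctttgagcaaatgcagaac
Aplp1, tail: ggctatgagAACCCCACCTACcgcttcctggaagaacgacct
Aplp2, tail: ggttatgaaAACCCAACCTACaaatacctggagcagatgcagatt
Over the 48 bases that end with this motif, App was identical to Aplp2 at 72.9% of positions and to Aplp1 at 62.5%, and Aplp1 to Aplp2 at 66.7%. The last 2 sequences are the coding ends of Itm2b (minus strand of chr14:73363061-73364545) and Itm2c (plus strand of chr1:85907155-85907635), with the Lys-Arg codons of the site that furin-type proteases cut in capitals. They are followed by 23 and 25 codons, which encode the released peptides.
Itm2b, end: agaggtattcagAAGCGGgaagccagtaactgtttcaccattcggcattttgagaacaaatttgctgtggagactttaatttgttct
Itm2c, end: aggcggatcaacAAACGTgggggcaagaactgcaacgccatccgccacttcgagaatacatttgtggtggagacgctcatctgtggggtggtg

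The analysis kept 11545, 19014, 15272 and 14087 cells (P1, P4, P10, adult), with median UMI counts of 25800, 12047, 18057 and 11065. A UMI (unique molecular identifier) marks 1 captured RNA molecule. Levels are given as CPM, counts per 1000000 UMIs: the UMIs of a gene summed over the cells of a class, relative to the UMIs of genes that are neither mitochondrial nor of ribosomal proteins. Brackets give 95% intervals, exact for Poisson counts and for their ratios, which cover counting error only. Cell classes were rebuilt by clustering each library and naming clusters from marker genes, and are called X-like. In adult, the summed oligodendrocyte markers reached 86140.0 CPM in oligodendrocyte-like and 207 CPM in IT-like cells, microglial markers 46920.0 CPM in microglia-like and 65.1 in IT-like cells, and GABAergic markers 8240.5 CPM in inhibitory-like and 45.7 in IT-like cells. The class of intratelencephalic (IT) neurons, which project within the telencephalon, was less sharply set apart, with IT markers at 1259.6 CPM in adult IT-like cells and 1136 CPM in adult L5 NP-like cells. The P1 library stood apart: its header names another version of the counting pipeline with intronic reads kept, it shared 10 to 20 cell indexes with the other libraries, which shared 256 to 323 with each other, and 55.3% of its cells held a UMI of a Y-linked gene, against 0.163% to 0.241% elsewhere, although the mice are stated to be female. The main contrast is therefore adult against P4, and P1 values are given beside it.

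In IT-like cells, 5 of the 9 genes, App, Aplp2, Itm2b, Itm2c and Sorl1, were at least 2-fold higher in adult than at P4, and none was 2-fold lower. Of all genes at 20 CPM or more at either age, 16.7% were at least 2-fold higher and 18.8% at least 2-fold lower in these cells. Over the 9 genes in 6 classes (IT-like, L5 PT-like, L6 CT-like, Sst-like, Vip-like and OPC-like cells, all named at the 4 ages), 37 of 54 series of levels were higher at every successive age, against 14.6% of the series of all genes that reached 20 CPM at any age in these classes. Microglia-like cells, the other class named at the 4 ages, had 0 of 9 such series, against 5.37% of all genes there, which makes 37 of 63 with them. Each series includes the step from P1, counted with another pipeline version, to P4. All series come from the same 4 libraries and are not independent. In the 6 classes, the count was 37 without the cells of P1 that held a Y-linked UMI and 27 with free RNA subtracted, that is, after a share of the library's average profile, as RNA of other cells, had been taken from each class. Astrocyte markers in IT-like cells summed to 97.8 CPM at P4 and 884 in adult, oligodendrocyte markers to 54.1 and 207 CPM, and astrocyte markers in L6 CT-like cells to 149 and 2202 CPM. In L5 NP-like cells astrocyte markers summed to 424 and 2154 CPM, and adult L5 PT-like cells had 316 CPM. The astrocyte markers include Slc1a2, which was also among the leading genes of the L6b-like cluster of P4. The source of these sums was not tested. Some of these classes also differ in makeup between ages. IT-like cells took in a cluster led by Cck, Vegfd and Fosl2 at P10 (1111 of 4474 cells, IT score −0.25). A cluster of P4 led by Npy, Fosl2 and Vegfd (1225 cells) and an Npy-led one of P1 (1938 cells) were left out. With the Npy-led cluster added at P4, the log2 ratio of adult to P4 of Itm2c in IT-like cells was 3.51 in place of 3.77. Sst-like cells of P1 held Sst markers at 3936 and Pvalb markers at 3231 CPM, and finer clusters gave 508 Sst-like and 774 other GABAergic cells at P1. L6 CT-like cells held L6b markers at 45.9 CPM at P4 and 241 at P10, where finer clusters gave 226 L6b-like cells. With free RNA subtracted by astrocyte genes, 5 members were still 2-fold higher in IT-like cells. L5 PT neurons project to the brainstem and spinal cord, L6 CT neurons to the thalamus and L5 NP neurons to nearby cortex, and Sst, Pvalb, Vip and Lamp5 mark classes of inhibitory interneurons.

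**Figure D1:**
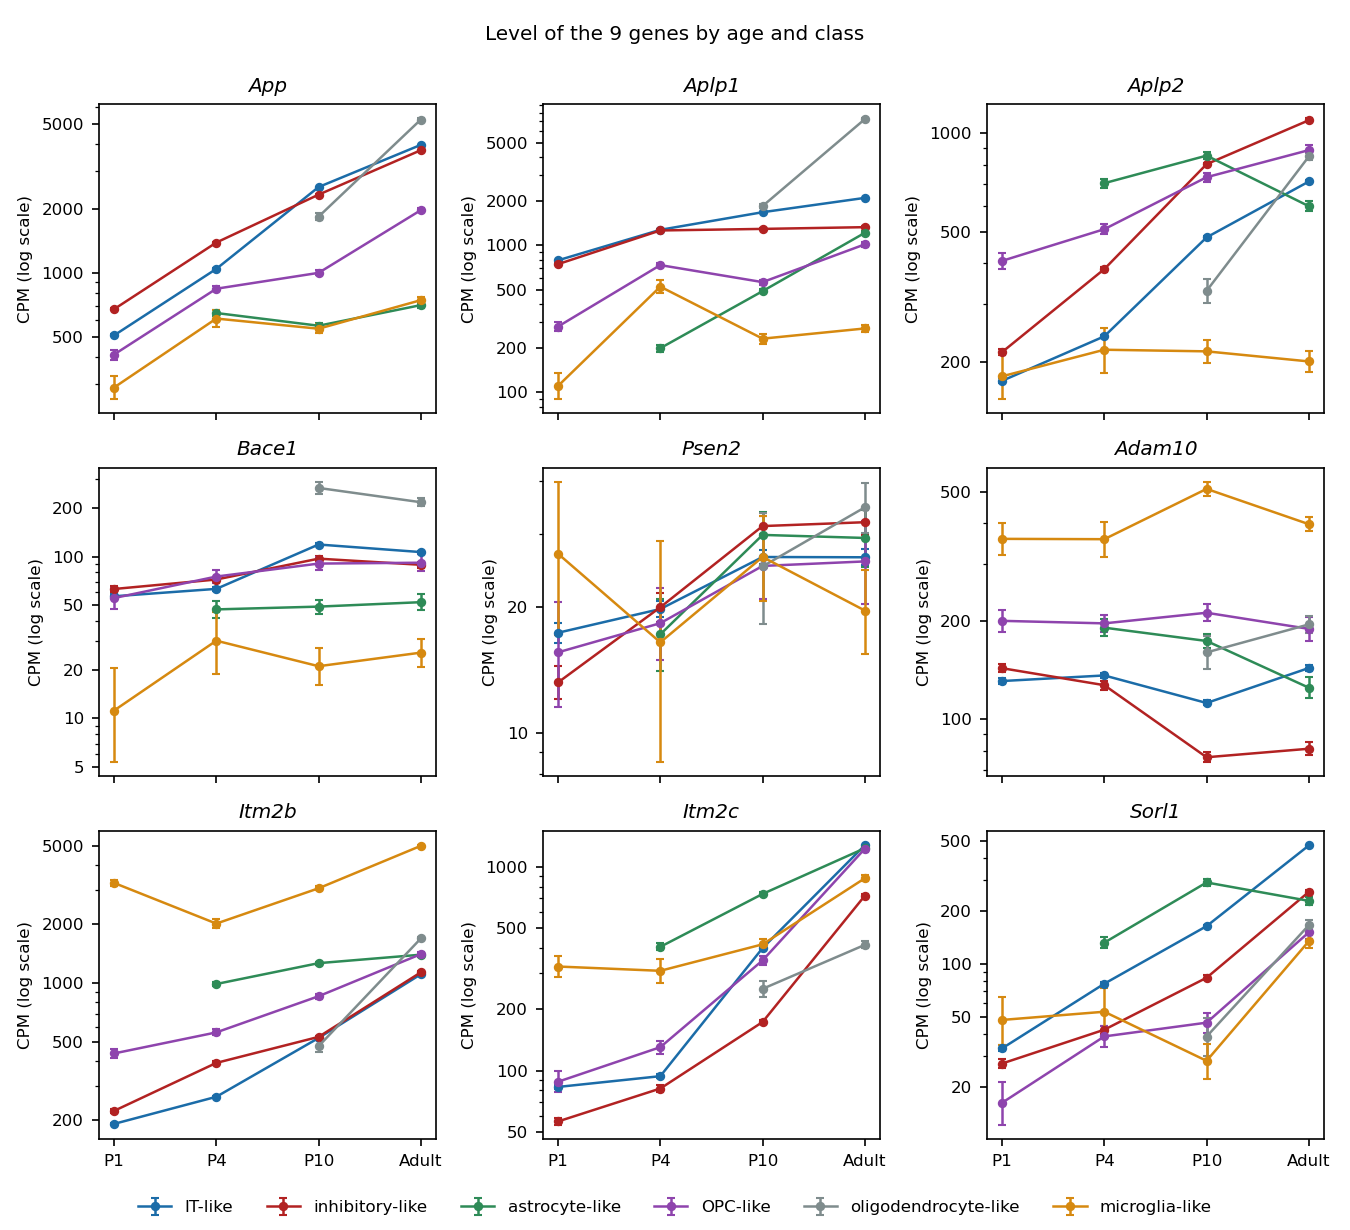
CPM (log scale) of each gene by age in IT-like, inhibitory-like, astrocyte-like, OPC-like, oligodendrocyte-like and microglia-like cells, with bars for 95% Poisson intervals. In IT-like cells Itm2c went from 93.9 CPM at P4 to 1279 in adult, while Adam10 lay between 112 and 144 CPM at all 4 ages.

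App in IT-like cells was at 507, 1041, 2523 and 3981 CPM (P1, P4, P10, adult), so that the adult level was 3.82 (3.80 to 3.85) times that of P4. The intervals of the 4 ages did not overlap. The bracket of the ratio leaves out shifts with the processing, which are given further on. Inhibitory-like cells showed App at 673, 1384, 2324 and 3758 CPM (P1, P4, P10, adult), a ratio of adult to P4 of 2.72 (2.68 to 2.75). This pooled class changed its makeup, in every series given here for it: at P1 it held 1275 Sst-like and 417 Vip-like cells alone, Pvalb-like cells were part of it from P4 on (1113 of 2950 at P4), and Lamp5-like cells (151 of 1385) in adult alone. Within its named classes the ratio for App was 2.41 (2.37 to 2.46) in Sst-like, 3.06 (2.99 to 3.13) in Vip-like and 3.24 (3.17 to 3.32) in Pvalb-like cells. Deep-layer excitatory classes followed the same order of ages, with App in L6 CT-like cells at 519, 998, 1939 and 3480.4 CPM (P1, P4, P10, adult).

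Among glia the pattern of App depended on the class. Astrocyte-like cells held App at 646, 563 and 704 CPM (P4, P10, adult), with a ratio of adult to P4 of 1.09 (1.04 to 1.14) that was below 1 when cells marked as doublets by Scrublet were removed, with a stricter cell filter, with finer clusters and when cells were weighted equally. In OPC-like cells (oligodendrocyte precursors), App was at 412, 840.3, 998 and 1966 CPM (P1, P4, P10, adult). Without Scrublet-marked cells its ratio of adult to P4 there fell under 2-fold. In adult both OPC-like and astrocyte-like cells held App within the range of neuronal reference genes given further on. Oligodendrocyte-like cells, named at P10 and in adult only, had App at 1831 and 5236 CPM (P10, adult), a ratio of 2.86 (2.76 to 2.97). The same cells held OPC markers at 7932 and 3147 CPM and oligodendrocyte markers at 39524 and 86140.0 CPM (P10, adult), and Gpr17 and Enpp6, genes of newly formed oligodendrocytes, were among the leading genes at P10. The part of this shift in the values of App and Aplp1 was not tested. The adult library held its highest App level in oligodendrocyte-like cells and its lowest in microglia-like and astrocyte-like cells, whose intervals overlapped, with Vip-like cells second at 4734 CPM and IT-like cells next. App in endothelial-like, L5 NP-like, L6 CT-like, Sst-like and L5 PT-like cells formed a chain from 3576 to 3433 CPM in which each neighbour's interval overlapped the next. Of the endothelial-like cells, 17.97% were marked by Scrublet. Finer clusters gave 649 endothelial-like cells beside an unnamed cluster of 200, led by Ly6c1, Itm2a and Cldn5, with 66.5% marked. The median UMI count was 13655 in that unnamed cluster and 4377 in the 649 cells. Levels are sums of UMIs, so such cells weigh more than their share of cells. Their part in the levels of endothelial-like cells was not tested.

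Aplp1, the relative of App that is best known as a neuronal protein, was already abundant in IT-like cells at birth, at 792, 1278, 1684 and 2108 CPM (P1, P4, P10, adult). Its adult level there was 1.65 (1.64 to 1.66) times that of P4, and in inhibitory-like cells 1.05 (1.04 to 1.07) times. Pvalb-like cells were at 1135, 1128 and 939.9 CPM (P4, P10, adult), a ratio of 0.828 (0.804 to 0.854). In inhibitory-like cells the direction turned with free RNA subtracted, from a log2 ratio of 0.07 to −0.65. Oligodendrocyte-like cells stood at the other end, with Aplp1 at 1854 and 7243 CPM (P10, adult), and the adult level was 3.44 (3.40 to 3.47) times that in adult IT-like cells. Astrocyte-like cells held Aplp1 at 200.2, 489 and 1219.9 CPM (P4, P10, adult), a ratio of adult to P4 of 6.09 (5.73 to 6.48). Oligodendrocyte markers in the same astrocyte-like cells summed to 111, 196 and 712 CPM (P4, P10, adult), and their part in this difference was not tested. As the P4 level lay within the background of free RNA given further on, the size of the ratio is uncertain, and with free RNA subtracted its log2 was 4.80 in place of 2.61. The adult order of Aplp1 ran from oligodendrocyte-like cells through IT-like (2108 CPM) and L5 NP-like cells (2107 CPM), whose intervals overlapped, down to microglia-like cells at 273 CPM, a level within background.

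Aplp2, the broadly expressed relative, was at 176, 239.9, 480.2 and 711 CPM (P1, P4, P10, adult) in IT-like cells, a ratio of adult to P4 of 2.96 (2.92 to 3.01). In inhibitory-like cells it was at 215, 384, 802 and 1092 CPM (P1, P4, P10, adult), a ratio of 2.84 (2.78 to 2.90). Both neuronal classes had their lowest level at P1 and their highest in adult. Astrocyte-like cells peaked at P10 instead, with 702, 852 and 598 CPM (P4, P10, adult). Within the adult library, Aplp2 was highest in Lamp5-like cells, at 1569.9 (1522 to 1619) CPM, followed by Vip-like (1196 CPM) and Pvalb-like cells (1079.6 CPM), and lowest in microglia-like cells (201 CPM). Sst-like, OPC-like, endothelial-like, oligodendrocyte-like and mural-like cells, between 841 and 907 CPM, could not be told from their neighbours in that order by their intervals. A small cluster led by Reln, with Ndnf and Nhlh2 among its leading genes, held Aplp2 at 896, 1108 and 1299 CPM (P1, P4, P10), above IT-like cells at each of these ages.

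The ratios of the proteases in IT-like cells were nearer to 1 than that of App. Adam10, the alpha-secretase, was at 131, 136, 112 and 144 CPM (P1, P4, P10, adult) in IT-like cells, a ratio of adult to P4 of 1.05 (1.03 to 1.08). In Pvalb-like cells Adam10 was at 136, 56.8 and 58.7 CPM (P4, P10, adult), a ratio of 0.432 (0.388 to 0.481), and it was the 1 member at least 2-fold lower in adult than at P4 in these cells. Sst-like cells went from 118 CPM at P4 to 76.3 in adult and Vip-like cells from 139 to 97.8. With free RNA subtracted, Adam10 in inhibitory-like cells together was more than 2-fold lower in adult than at P4, as given further on. At P10 Adam10 was at 79.3, 56.8 and 102 CPM in Sst-like, Pvalb-like and Vip-like cells. The Vip-like class was mixed at the young ages, with Vip markers at 2938, 3889.5 and 10809 CPM and Lamp5 markers at 2847, 4770.2 and 1878 CPM (P4, P10, adult). Finer clusters gave 467 Lamp5-like and 244 Vip-like cells at P10, so that the ages of this class compare unlike cells for each gene given here. Pvalb-like cells held Pvalb markers at 3830.5, 2041 and 5016 CPM and Sst markers at 2221, 2779.6 and 2920.4 CPM (P4, P10, adult), with more Sst than Pvalb markers at P10, and the gene Pvalb was not among their leading genes before adult. Of Sst-like cells at P4, 26.7% were marked by Scrublet. Pvalb-like cells also had 6 members at least 2-fold higher in adult, the 5 of IT-like cells and Psen2, against 16.6% of all genes higher and 22.0% lower there. Without Scrublet-marked cells no cluster at P4 was named Pvalb-like, so that these calls could not be made, and with free RNA subtracted 5 members were higher and 3 lower. Microglia-like cells led the adult order of Adam10 at 397 (378 to 417) CPM, followed by endothelial-like cells at 312 CPM, and Pvalb-like cells were last at 58.7 CPM. Clusters led by Cldn5 and hemoglobin genes, which were left without a name at the young ages, held Adam10 at 789, 524 and 493 CPM (P1, P4, P10).

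Bace1, the beta-secretase, was at 56.8, 63.1, 119 and 107 CPM (P1, P4, P10, adult) in IT-like cells, so that the P10 level exceeded the adult one. Its ratio of adult to P4 was 1.69 (1.63 to 1.74) in IT-like and 1.88 (1.77 to 1.99) in L5 PT-like cells. With IT-like clusters of a score of at least 0.3 alone, the log2 ratio in IT-like cells was 0.50 in place of 0.75. Oligodendrocyte-like cells held the most Bace1, at 265 and 216 CPM (P10, adult), and the adult level was 2.03 (1.92 to 2.15) times that of adult IT-like cells. L5 PT-like cells came next in adult at 132 (127 to 138) CPM. From L6 CT-like cells (109.9 CPM) down to astrocyte-like cells (52.3 CPM), each class overlapped its neighbour, and microglia-like cells were lowest at 25.5 CPM. Bace1 thus had the same leading class as App and Aplp1.

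Psen2, a catalytic subunit of gamma-secretase, had low counts throughout. In IT-like cells it was at 17.4, 19.8, 26.4 and 26.3 CPM (P1, P4, P10, adult), with a ratio of adult to P4 of 1.33 (1.25 to 1.42), and in Pvalb-like cells at 12.9, 26.8 and 27.2 CPM (P4, P10, adult), a ratio of 2.10 (1.66 to 2.67). Adult classes spanned 2.12-fold, the narrowest range of the 9 genes, and every class overlapped its neighbour in the order from Sst-like (41.7 CPM) to microglia-like cells (19.6 CPM). The Reln-led cluster had Psen2 at 35.2, 46.2 and 65.3 CPM (P1, P4, P10), with 76, 79 and 28 UMIs behind these values.

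Both BRI family members had larger ratios of adult to P4 than App in IT-like cells, but for Itm2b this order depended on the processing. With the stricter cell filter the log2 ratios of Itm2b and App were 2.14 and 2.19, and with cells weighted equally 2.13 and 2.12. The main values were 2.08 (2.05 to 2.10) for Itm2b and 1.94 (1.92 to 1.95) for App, so these alternatives lay outside the brackets. Itm2b was at 192, 263, 525 and 1110.1 CPM (P1, P4, P10, adult) in IT-like cells, a ratio of adult to P4 of 4.21 (4.16 to 4.27). Inhibitory-like cells had Itm2b at 223, 392, 532 and 1135 CPM (P1, P4, P10, adult), a ratio of 2.90 (2.83 to 2.96). Microglia-like cells carried more than IT-like or inhibitory-like cells at each age, with Itm2b at 3242, 2011, 3044 and 5010.0 CPM (P1, P4, P10, adult), although the P1 value rests on 34 cells. In adult they exceeded IT-like cells by a factor of 4.51 (4.44 to 4.58). Mural-like cells (2825 CPM), endothelial-like cells (1777 CPM) and oligodendrocyte-like cells (1690.3 CPM) followed, and all 8 neuronal classes came after the non-neuronal ones, with L5 PT-like cells last at 868 CPM. These orders cover 14 adult classes, and 23 fibroblast-like cells outside them held Itm2b at 3159 (2826 to 3520.1) CPM. Newborn excitatory-like cells of P1, named from markers such as Eomes, had Itm2b at 684 (666 to 703) CPM against 192 CPM in IT-like cells of the same library.

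Itm2c showed the largest ratio of the 9 genes in IT-like cells. It was at 83.2, 93.9, 399.8 and 1279 CPM (P1, P4, P10, adult), a ratio of adult to P4 of 13.6 (13.3 to 13.9). L5 PT-like cells reached 10.3 (9.94 to 10.7) times, Vip-like cells 11.6 (10.6 to 12.8) times and Sst-like cells 9.80 (9.29 to 10.4) times their P4 level. OPC-like cells also had a large ratio, with Itm2c at 88.2, 130.4, 348 and 1229.7 CPM (P1, P4, P10, adult), a ratio of 9.43 (8.71 to 10.2). Astrocyte-like cells were higher at P4 and had a smaller ratio, with 405, 737 and 1236 CPM (P4, P10, adult) and a ratio of 3.05 (2.91 to 3.19). Markers of dividing progenitors (NPC) in glia were also lower in adult than at P4, at 2711 and 166 CPM in astrocyte-like, 1953 and 275 CPM in OPC-like and 2588 and 67.6 CPM in microglia-like cells, and their part in the ratios of these classes was not tested. L6 CT-like cells had the most Itm2c in adult at 1642 (1624 to 1660.3) CPM, Pvalb-like cells 457 CPM and oligodendrocyte-like cells the least at 415 CPM. With free RNA subtracted, the adult level in inhibitory-like cells together was lower, as given further on.

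Sorl1, the sorting receptor, had ratios of adult to P4 that differed widely among neuronal classes. In IT-like cells it was at 33.1, 77.3, 164 and 474 CPM (P1, P4, P10, adult), a ratio of adult to P4 of 6.13 (5.98 to 6.28). L5 PT-like cells began near the same level and ended at the highest of all adult classes, with 40.2, 74.9, 213 and 881 CPM (P1, P4, P10, adult) and a ratio of 11.8 (11.3 to 12.3). L6 CT-like cells had far less than IT-like cells at P4 and P10, at 20.8, 16.6, 43.8 and 401 CPM (P1, P4, P10, adult), with a ratio of adult to P4 of 24.2 (21.7 to 27.1). In L5 NP-like cells the ratio was 23.3 (20.4 to 26.7), from 31.7 to 737 CPM. Interneurons differed among themselves, with ratios of 15.1 (12.8 to 17.8) in Pvalb-like, 5.32 (4.88 to 5.80) in Sst-like and 3.25 (2.91 to 3.64) in Vip-like cells. Over all inhibitory-like cells the log2 ratio was 2.61, and 2.02 with free RNA subtracted, when the adult level was 122 in place of 258 CPM. Newborn excitatory-like cells of P1 were an exception among young neurons, with Sorl1 at 339 (326 to 352) CPM against 33.1 CPM in IT-like cells of P1. In astrocyte-like cells Sorl1 peaked at P10, at 132, 292 and 229 CPM (P4, P10, adult). The adult order closed with oligodendrocyte-like, mural-like, OPC-like and microglia-like cells between 135 and 167 CPM.

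Dividing progenitors (NPC-like cells, found up to P10) held App at 354, 844 and 614 CPM (P1, P4, P10), with no adult value to compare. The cells under this name were not alike: the P1 cluster was led by Fabp7, Slc1a3 and Tnc beside cell cycle genes and scored next highest for astrocyte markers, while those of P4 and P10, with Insm1 and Dlx1 among their leading genes, scored next highest for GABAergic markers, and 15.7% of the P4 cells were Scrublet-marked. The 3 levels therefore compare different cells. Itm2b in them was at 388, 291 and 517 CPM (P1, P4, P10) and Adam10 at 162, 142 and 159 CPM (P1, P4, P10). Aplp1, at 184, 633 and 377 CPM (P1, P4, P10), was below IT-like cells at each of these ages. L6b-like cells, the deepest cortical neurons, were named at P4 only and had Sorl1 at 16.3 (13.8 to 19.2) CPM, near the level of L6 CT-like cells of that library. A cluster led by Npy, which passed no naming rule, had Itm2c at 99.0 and 223 CPM (P1, P4), against 83.2 and 93.9 CPM in IT-like cells of the same libraries.

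**Figure D2:**
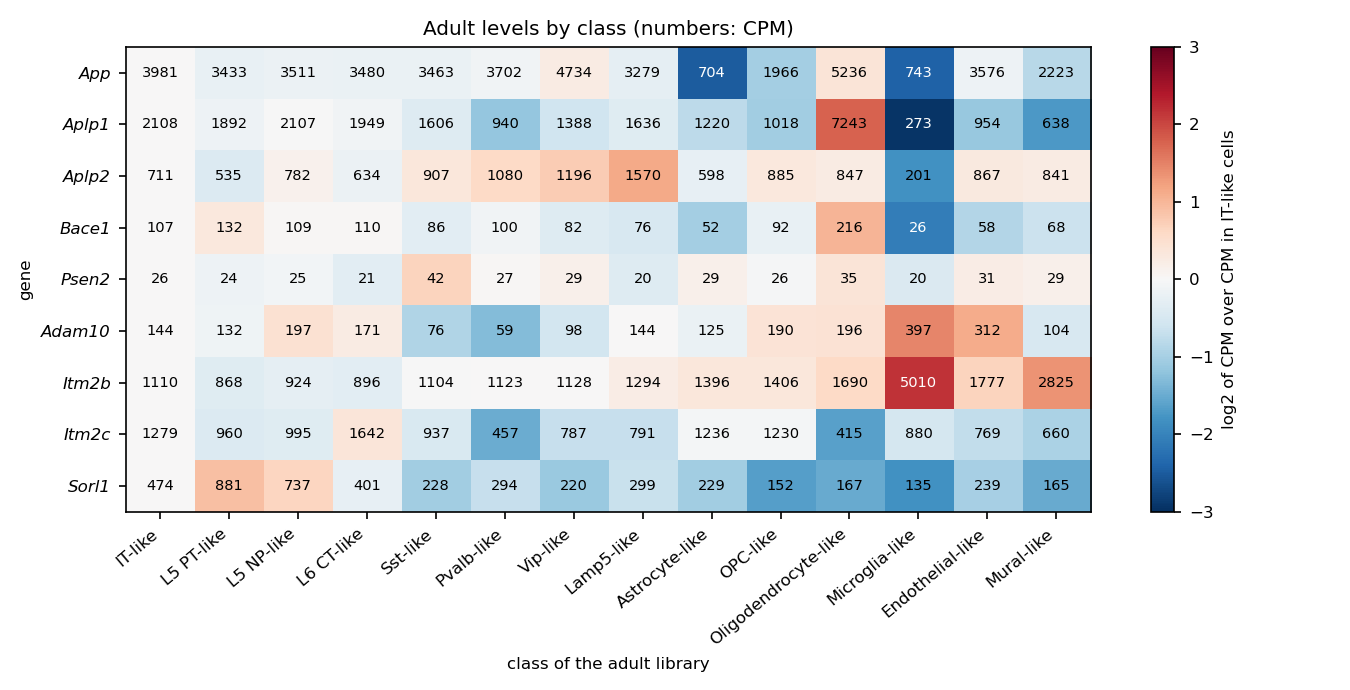
Adult level of the 9 genes (rows) in 14 classes (columns), with CPM printed in each cell and colour for the log2 ratio to IT-like cells. App, Aplp1 and Bace1 were highest in oligodendrocyte-like cells (5236, 7243 and 216 CPM), Adam10 and Itm2b in microglia-like cells (397 and 5010.0 CPM) and Sorl1 in L5 PT-like cells (881 CPM).

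By class, the same 5 genes as in IT-like cells were at least 2-fold higher in adult than at P4 in inhibitory-like cells, where 14.1% of all genes were higher and 17.0% lower. In astrocyte-like cells, 2 members were higher (Aplp1 and Itm2c) and none lower, against 12.4% and 15% of all genes. OPC-like cells had 4 higher members (App, Itm2b, Itm2c and Sorl1), against 11.1% higher and 8.96% lower among all genes. Without Scrublet-marked cells, which made up 15.6% of OPC-like cells at P4 and 10.3% in adult, 2 remained, and App and Sorl1 came to log2 ratios of 0.81 and 0.91. Microglia-like cells had 3 higher members of the 8 that reached 20 CPM (Itm2b, Itm2c and Sorl1), against 11.3% higher and 20% lower. With free RNA subtracted, no member was 2-fold higher in microglia-like cells and 2 were lower, and the split was 2 higher and 1 lower in astrocyte-like, 2 and 1 in OPC-like and 5 and 1 in inhibitory-like cells. In addition, the 76 microglia-like cells of P4 held 23.7% Scrublet-marked cells. The median log2 ratio of adult to P4 over all genes was −0.14 in IT-like, −0.14 in inhibitory-like, −0.19 in astrocyte-like, −0.06 in OPC-like and −0.15 in microglia-like cells.

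Set against adult IT-like cells, adult astrocyte-like cells had 3 lower members (App, Bace1 and Sorl1) and no higher one, against 22.6% and 22.2% of all genes. OPC-like cells had 3 lower members (App, Aplp1 and Sorl1) and no higher one, against 8.69% and 22.8%. In microglia-like cells, 2 members were higher (Adam10 at 2.76 (2.62 to 2.91) times and Itm2b) and 5 lower (App, Aplp1, Aplp2, Bace1 and Sorl1), against 27.4% and 28.3%. Oligodendrocyte-like cells had 2 higher (Aplp1 and Bace1) and 2 lower members (Itm2c and Sorl1), against 20.4% and 27.4%. Endothelial-like cells had Adam10 higher at 2.17 (2.06 to 2.28) times and Aplp1 lower, against 21% and 11.3%.

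Low levels in glia were read beside RNA from other cells, measured with 14 genes of neurons known mainly from neurons, among them Snap25, Syt1, Nrgn, Slc17a7 and Camk2b. In adult microglia-like cells these genes had a median of 21.3% of their library average (range 14.4% to 24.8%), and App stood at 20.6%, Aplp1 at 13.5% and Bace1 at 24.4%. All 3 lay at or below the top of that range, so that these levels could not be told from RNA of other cells. In adult astrocyte-like cells the range was 18.4% to 29.9%, and App stood at 19.5%, whereas at P4 the range was 10.4% to 35.1% and App stood at 55.0%. App in astrocyte-like cells was thus above this background at P4 and within it in adult, while Aplp1 there was within it at P4 (16.5%) and above it in adult (60.4%). For adult OPC-like cells the range was 39.1% to 65.4%, and App (54.5%), Aplp1 (50.4%) and Sorl1 (34.2%) did not exceed it. This range lay above those of astrocyte-like, microglia-like and oligodendrocyte-like cells of the same library, and 10.3% of the OPC-like cells were Scrublet-marked. Its source was not tested, so it does not show that these levels come from other cells. Oligodendrocyte-like cells of adult lay clear of a range of 11.8% to 21.3%, with App at 145%, Aplp1 at 359% and Bace1 at 207%. Endothelial-like cells had App at 99.2% above a range of 45.6% to 59.1%, but Aplp1, Bace1 and Sorl1 within it.

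**Figure D3:**
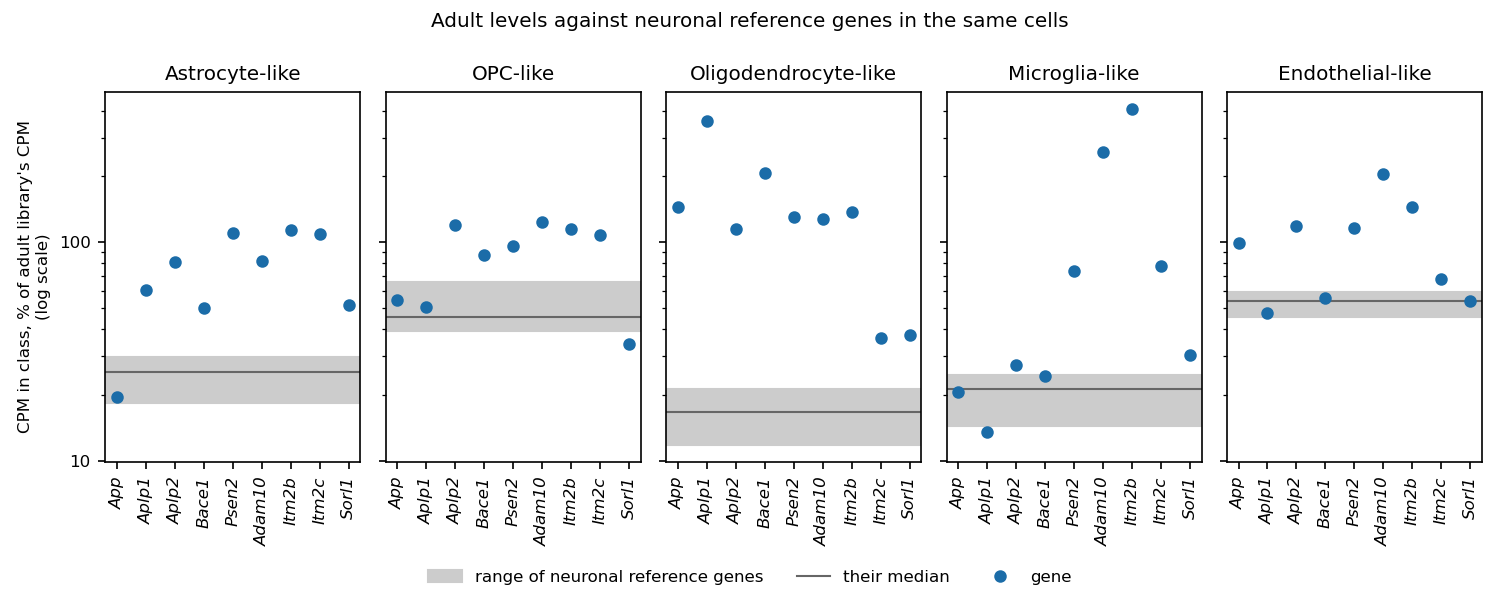
Adult level of each gene in 5 non-neuronal classes as a percent of its CPM over the whole adult library (log scale), with the grey band for the range and the line for the median of 14 neuronal reference genes in the same cells. App of astrocyte-like cells, at 19.5%, lay inside the band of 18.4% to 29.9%, and Aplp1 of oligodendrocyte-like cells, at 359%, far above its band.

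Within the IT-like class, clusters of 1 library differed from each other in some members. In adult, the cluster led by Gfra2 had Sorl1 at 641 CPM and Itm2c at 915, whereas the cluster led by Wfs1 had Sorl1 at 314 and Itm2c at 1705, so that the genes had opposite orders. Bace1 was at 146 CPM in the adult cluster led by Bmp3 and at 82.1 and 99.1 CPM in those led by Gfra2 and Wfs1. At P4, App was at 1231 CPM in the cluster led by Epha4 and at 760.1 in that led by Eif1b. In App, Aplp2, Itm2b, Itm2c and Sorl1, the genes called 2-fold higher above, every adult cluster exceeded every P4 cluster. These clusters make up the sums behind that call, so their order adds no support to it. The share of all genes with such an order was not determined.

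Other genes of the pathway were taken from a list of 64 genes, of which 63 were measured. The list held subunits of gamma-secretase, other secretases, tetraspanins that steer Adam10, adaptors of the App tail, and sorting and retromer genes. It also held amyloid-beta degrading proteases, lipoprotein genes and genes of microglial receptor signalling. In IT-like cells 45 reached 20 CPM, 10 were at least 2-fold higher in adult than at P4 and 5 at least 2-fold lower. The split was 11 to 3 with median-centred scaling and 10 to 7 with free RNA subtracted. Over all genes the shares were 16.7% and 18.8%. The median log2 ratio of the 45 was 0.04, against −0.14 over all genes.

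Sorting receptors related to Sorl1 were among those higher. Sorcs3 went from 9.74 to 137 CPM (14.1 times), Sort1 (sortilin) from 109.8 to 479 CPM (4.36 times) and Sorcs1 from 19.3 to 66.5 CPM (3.46 times). Picalm, a clathrin assembly protein, was lower at 0.479 times. Among degrading proteases, the cathepsins Ctsb and Ctsd and the endothelin-converting enzyme Ece1 were higher at 3.03, 2.67 and 2.07 times, and the insulin-degrading enzyme Ide was lower, from 141 to 44.7 CPM (0.316 times). The adaptor Numb, which like Dab1 can bind the App tail, went from 5.48 to 44.1 CPM (8.05 times), and Dab1, an adaptor of Reelin signalling, from 341 to 109 CPM (0.320 times). The Reelin and ApoE receptor Lrp8 was lower at 0.377 times, and the lipoprotein Clu (clusterin) higher at 3.78 times. Adam9, a relative of Adam10, was higher at 3.54 times, and of the tetraspanins Tspan33 had the largest ratio (4.03 times) and Tspan14 the smallest (0.673 times). Of the gamma-secretase subunits, Aph1a had a ratio of 0.567 and Psenen of 1.35, both under 2-fold. Itm2a, the third BRI gene, was lower at 0.492 times, whereas Itm2b and Itm2c were higher.

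**Figure D4:**
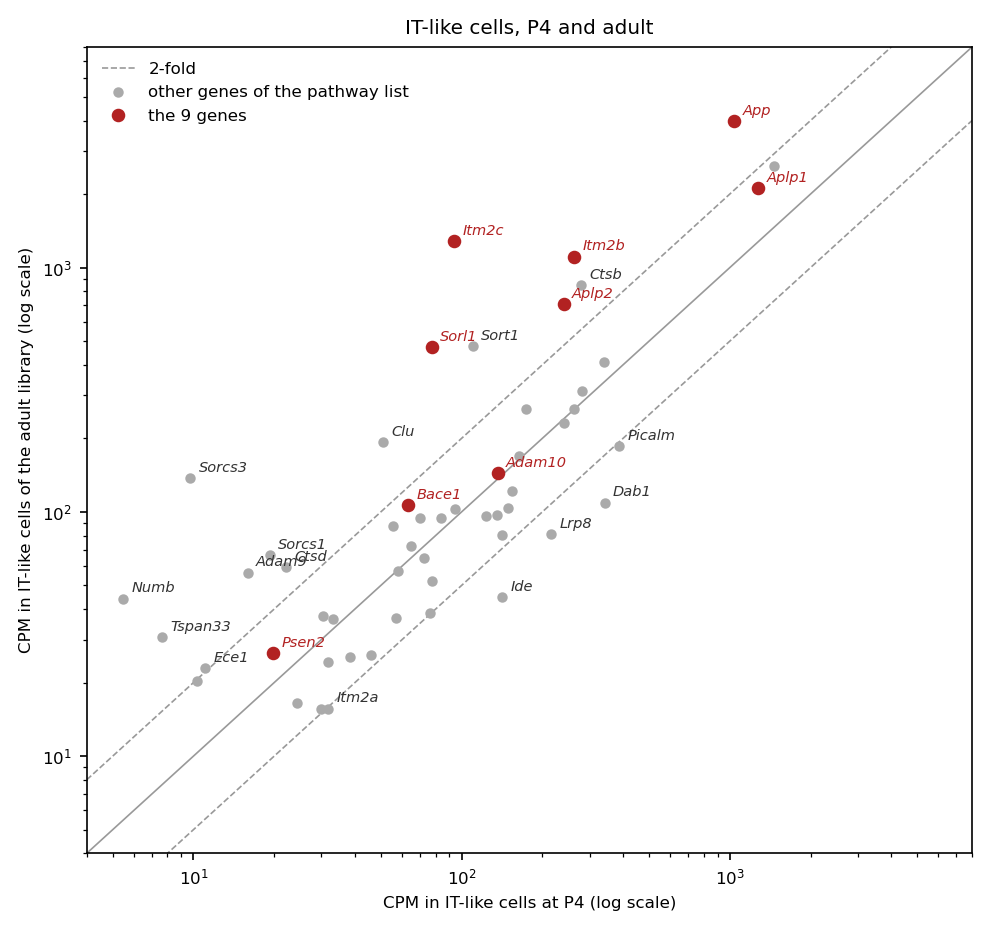
CPM in IT-like cells at P4 (x) and in adult (y), both on log scales, for the 9 genes (red) and the 45 pathway genes at 20 CPM or more (grey), with the line of equal level and dashed lines at 2-fold. App, Aplp2, Itm2b, Itm2c and Sorl1 lie above the upper dashed line, and Ide, Dab1, Lrp8, Picalm and Itm2a below the lower one.

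In adult non-neuronal classes, the pathway genes highest relative to IT-like cells were Cd33 (1082 times), Tyrobp (653 times) and Trem2 (374 times) in microglia-like cells. In astrocyte-like cells they were Apoe (351 times), the main lipid carrier of the brain, Abca1 (104 times), which loads it with lipid, and Tspan15 (42.9 times). OPC-like cells had Apoe, Abca1 and Adam17 (98.4, 92.6 and 16.1 times), while astrocyte markers in them summed to 2307 CPM, and their part in these values was not tested. Oligodendrocyte-like cells had Tspan15 and Apoe (109 and 64.7 times). Tspan10 headed that list by its rule with 2 UMIs against 0, for which no ratio is given.

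Genes with the most similar pattern were ranked by Pearson's r of log2(CPM + 10) over 45 class-by-age sums, among 4835 genes with a mean of at least 50 CPM. The sums share libraries and depth, and the values are descriptions. App was closest to Tmem151a (r = 0.93), Zrsr1 (0.91) and Gabarapl1 (0.91), and Aplp1 to Tubb4a (0.88), Agpat4 (0.88) and Hid1 (0.87). Bace1 was closest to Aatk (0.89), Agpat4 (0.89) and Tubb4a (0.88), so that the last 2 were shared with Aplp1. Itm2b had M6pr (0.94), Tacc1 (0.90) and B2m (0.89), and Itm2c had Tmem248 (0.92), Yipf4 (0.92) and Dnajb9 (0.90). Aplp2 was closest to Tmem106b (0.88), Lmbrd1 (0.86) and Pura (0.84), and Sorl1 to Cap2 (0.86), Chn1 (0.86) and Mat2b (0.82). Psen2 and Adam10 had weaker matches, with Cystm1 (0.79), B4gat1 (0.78) and Dynlt3 (0.77) for Psen2 and Leprot (0.75), Ptbp3 (0.74) and Git2 (0.74) for Adam10. Among the members themselves, the highest values over the same sums were those of Aplp1 with Bace1 (0.79), Itm2b with Itm2c (0.79) and App with Aplp1 (0.77), and the lowest that of Bace1 with Adam10 (−0.41).

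The 9 genes lie at separate places of the genome, App on chromosome 16 (84949685 to 85173766), Aplp1 on chromosome 7 (30434982 to 30445535), Itm2b on chromosome 14 (73362226 to 73385289), Psen2 and Itm2c on chromosome 1 (180227004 to 180263438 and 85894281 to 85908675), and Aplp2, Bace1, Adam10 and Sorl1 on chromosome 9 (31149557 to 31211815, 45838580 to 45864399, 70678997 to 70780229 and 41964720 to 42124297), in GRCm38. The annotation places 5 genes on the opposite strand within the span of App, 3 at Bace1 and 1 each at Psen2 and Sorl1, and whether the counting used strand is not given in the sources used here. RefSeq promoters (GRCm38.p6, from 250 bases before to 50 after a start) matched 8 of the 9 genes. They matched 10 starts, as Psen2 and Sorl1 had a second one. A GC box (GGGCGG on either strand) was found at 8 of the 10, in all but the second starts of Psen2 and Sorl1, and in 35.7% of 32851 promoters of the same length. The 8 windows with a GC box held 20 to 37 CpG sites (C followed by G). The second starts of Psen2 and Sorl1 held 8 and 9, and the median of all promoters was 7. The share of GC boxes was not compared with promoters of like CpG content. A TATA box (TATAAA on either strand) was found in none of the 10, and in 13.6% of all promoters. These matches describe letters in the window and were not related to the levels.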

How the data were processed

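Prefrontal cortex cells of mice aged P1, P4, P10 and adult were measured in 1 library per age with the BD Rhapsody 3′ whole transcriptome assay. The authors deposited raw counts (UMIs of each gene in each cell) from the BD Rhapsody pipeline, run on GRCm38 with GENCODE vM19. The file headers give version 1.11 for P1 and 1.8 for P4, P10 and adult. The doublet and manual removal of cells that the methods describe was not repeated, and the authors' cell annotation was not used.

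From the deposited counts, cells with at least 1000 UMIs, 1000 genes and at most 15% mitochondrial UMIs were kept, as the methods state. Total counts over all barcodes were 340724049, 273834131, 287594712 and 200198548 (P1, P4, P10, adult). Each library was clustered on its own (scanpy 1.11.5, 2000 variable genes without the 9 genes and the pathway list, 30 principal components, 20 neighbours, Leiden resolution 0.5 with leidenalg 0.10.2). Clusters were named from marker lists, with thresholds set after the cluster scores but before the values of the 9 genes were seen, so that shares and levels may differ from those under other names. Cells marked as doublets by Scrublet (expected rate 0.06) were kept. Inhibitory-like cells are all Sst-like, Pvalb-like, Vip-like and Lamp5-like cells together.

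UMIs were summed over the cells of a class and divided by the UMIs of genes that are neither mitochondrial nor of ribosomal proteins (CPM). Cells are not replicates, so no test was made. Intervals (scipy 1.17.1) were run on simulated Poisson counts only. These hold no variation between cells, mice or libraries, so the run cannot show how the intervals fit these data. A gene counted as higher or lower at a ratio of 2 or more, among genes with 20 CPM on either side. All 9 genes were described. Named pathway genes were, in IT-like cells, the highest and the lowest ratio of each group and every gene past 2-fold, and in glial classes the 3 highest ratios to IT-like cells. The 9 genes and the gene lists were chosen with earlier results of these data known. Alternatives changed the doublets, the cell filter, the resolution, the denominator, the weight of cells, the scaling between ages, the level minimum and the RNA of other cells. The Npy-led cluster at P4, IT-like clusters with a score of at least 0.3 alone, and all alternatives for Pvalb-like cells, were added after seeing the data.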

Additional observations from a re-analysis of the deposited data

Results flagged for a closer look

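Aplp1 had ratios of adult to P4 of opposite sign in glia, with a log2 ratio of 2.61 in astrocyte-like and −0.94 in microglia-like cells. The latter rests on 76 cells at P4 and was 0.68 without Scrublet-marked cells. Aplp1 was set against the range of 14 neuronal genes in the same cells, as a percent of the library average. In microglia-like cells it lay at or below background at both ages (43.2% in a range of 39.0% to 68.0% at P4, and 13.5% against 14.4% to 24.8% in adult). The P4 level of astrocyte-like cells also lay within background (16.5% in 10.4% to 35.1%). The negative ratio in microglia-like cells is therefore not read as a fall of Aplp1 there. In adult astrocyte-like cells Aplp1 lay above its range, as given above, at 1219.9 CPM against 273 CPM in adult microglia-like cells. Aplp2 was higher in adult Pvalb-like cells (1.68) and lower in adult astrocyte-like cells (−0.23). Adam10 was level in IT-like cells (0.076) and lower in adult Pvalb-like cells (−1.21). With 1 library per age these differences between classes were not tested.

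Outside the 9 genes, the summed UMIs of 4 Y-linked genes (among them Ddx3y and Uty) reached 120 CPM in the P1 library and 0.125 to 0.190 CPM in the other libraries, although the mice are stated to be female.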

How the results depend on the processing

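The counts of members at least 2-fold higher or lower were within 1.5 times the main count in IT-like, inhibitory-like, astrocyte-like and microglia-like cells under every alternative run, but the split of directions did not hold in all. In OPC-like cells, the 4 members became 2 without Scrublet-marked cells. With free RNA subtracted, the split of higher to lower members was 2 to 1 in OPC-like, 2 to 1 in astrocyte-like, 5 to 1 in inhibitory-like and 0 to 2, against 3 to 0, in microglia-like cells. The 15 pathway genes past 2-fold in IT-like cells became 26 (17 higher and 9 lower) with a minimum of 3 UMIs at both ages, which lets more genes in, and were 14 to 17 otherwise, with the split of 10 higher and 5 lower going to 11 and 3 with median-centred scaling and to 10 and 7 with free RNA subtracted. In Pvalb-like cells, for which alternatives were added after seeing the data, 7 members were past 2-fold (6 higher, 1 lower) except with free RNA subtracted (5 higher, 3 lower), and no P4 class was named without Scrublet-marked cells. Of 54 series of levels, 27 (free RNA subtracted) to 38 were higher at every successive age, against 37, and 37 of 63 with microglia-like cells, which were added after seeing the data. In IT-like cells the same 5 members were past 2-fold with the Npy-led cluster added at P4 and with clusters of a score of at least 0.3 alone, both chosen after seeing the data.

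For single genes, the log2 ratio of adult to P4 kept its sign in 34 of 40 results with free RNA subtracted, in 40 of 45 without Scrublet-marked cells, in 41 of 45 with cells weighted equally, in 43 of 45 with median-centred scaling, in 44 of 45 each with the stricter filter and the finer clusters, and in 45 of 45 with all UMIs as denominator. App in astrocyte-like cells went from 0.12 to between −0.23 and −0.08 in 4 of these. Sizes changed as well as signs. The largest shift of a log2 ratio was 2.19 with free RNA subtracted, 1.62 without Scrublet-marked cells and 0.85 with cells weighted equally. It was 0.36 with the finer clusters, 0.34 with the stricter filter, 0.19 with median-centred scaling and 0.05 with all UMIs as denominator. The brackets of the ratios cover counting error only and leave these shifts out. With free RNA subtracted, Aplp1 went from 0.07 to −0.65 in inhibitory-like and from 0.47 to −0.99 in OPC-like cells, and from 2.61 to 4.80 in astrocyte-like cells, while Adam10 in inhibitory-like cells went from −0.65 to −1.96. Adult levels in inhibitory-like cells then were 28.9 CPM for Adam10, 122 for Sorl1 and 419 for Itm2c, against 81.3, 258 and 723. In adult IT-like cells the same step gave 143, 477 and 1296 CPM, against 144, 474 and 1279. For neurons, the share taken was the median level of astrocyte genes in the class relative to the library average, so it differed between classes. Whether inhibitory-like cells express those genes themselves was not tested, and neither was the cause of these shifts. Of the 27 genes named as most similar, 25 were also named with a pseudocount of 1.

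No paired analysis was possible because each age is 1 library, and no replicate was left out for the same reason. Shares of cells with a UMI of the 9 genes are not reported. Low counts widen the intervals of Psen2 and of the small classes.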
